A study of Mus musculus with 36 samples.

Results

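The cytochrome P450 genes of mouse kidney were followed across 6 injected activities of 177Lu-octreotate, in cortex and in medulla. Members were all array probes whose gene symbol is Cyp followed by a digit, apart from the vitamin D enzymes Cyp24a1 and Cyp27b1, the sterol synthesis enzyme Cyp51 and the adrenal enzymes Cyp11a1, Cyp11b1, Cyp11b2 and Cyp21a1. A probe also had to be detected, which means a detection p under 0.05, on 3 or more of the 36 arrays. With 9 probes set aside by name, 92 probes for 68 P450 symbols remained, and 43 probes for 32 genes were detected, among 25697 probes and 16593 symbols on the array.

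Cytochrome P450 enzymes are haem proteins that insert an oxygen atom into their substrates, with electrons passed on from P450 reductase in the endoplasmic reticulum or from adrenodoxin in mitochondria. Families 1 to 3 mainly oxidise drugs and other foreign compounds, family 4 hydroxylates fatty acids and eicosanoids, and other families act on sterols, steroid hormones and retinoic acid. In rodent kidney most of these enzymes reside in the proximal tubule, where family 4 products of arachidonic acid bear on vascular tone and salt transport, and several members of subfamilies 2D and 4A differ between the sexes.

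The mice were of the Balb/c strain and were given 0, 1.3, 3.6, 14, 45 or 140 MBq of 177Lu-octreotate, a somatostatin analogue that carries a beta-emitting lutetium isotope and is taken up again by the proximal tubule. Tissue was taken after 24 h, and each of the 12 groups of tissue and activity was hybridised to 3 Illumina bead arrays. The labels give neither the age nor the sex of the animals, and they do not state whether a group's 3 arrays hold RNA of different animals, so p-values measure only the spread between arrays, which may be technical. Values below are log2 signals after background correction and quantile normalisation, and differences ± SE are log2 differences from limma, called at an adjusted p under 0.05 over all genes tested.

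Some arrays stood apart and are described first. Median raw signals ran from 112 to 225 per array, lowest on the control array numbered 1 of cortex (112) and of medulla (123). On the cortex control arrays numbered 1, 2 and 3, the mean centred log2 level of 21 proximal tubule markers was -1.051, -0.118 and 0.272, and that of 11 myeloid markers was 1.49, 0.926 and -0.309. On the medulla control arrays the proximal tubule level was -1.171, -0.39 and -0.067, and the myeloid level was 2.107, 1.726 and 0.488. Of the 32 P450 genes, 19 in cortex and 15 in medulla had their lowest control value on array 1. Adrenal cortex markers averaged 4.83 and 3.71 on the third array at 14 MBq of cortex and of medulla, and between -0.451 and 0.124 on the 6 control arrays. The level of 10 adipocyte markers was 3.207 on the third cortex array at 14 MBq, 3.056 on the second at 1.3 MBq and 2.348 on the third at 45 MBq, and between -1.742 and 1.038 on the controls. The part of these cell markers in the P450 results was not tested, and results that rest on a control array are given below with and without it. Leaving out the third control of a tissue also raised the share of all genes called against 0 MBq, as given under the processing.

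The tissue labels were checked against markers over the treated arrays. Of 10 collecting duct genes, 3 were called higher and 4 lower in cortex, and of 9 thick limb and distal tubule genes, 3 higher and 3 lower, with list medians of -0.055 and -0.095. The collecting duct water channel gene Aqp4 was lower in cortex by a log2 difference of -2.45, and Slc12a1, the salt carrier of the thick limb, by -0.78. The distal convoluted tubule gene Slc12a3 was higher in cortex by 0.64, as was the collecting duct gene Slc26a4, an anion exchanger of intercalated cells, by 0.83. Proximal tubule markers were present in both tissues: 5 of 21 were called higher and 3 lower in cortex, and their mean level ranged from -0.124 to 0.656 on treated cortex arrays and from -0.442 to 0.237 on treated medulla arrays. These ranges overlapped, and between 19 and 21 of the 21 markers were detected on each medulla array.

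Detection differed among the families. Of the CYP4 fatty acid hydroxylases, 12 of 17 probes and 10 of 13 genes were members. Of family 2 enzymes that act on foreign compounds, 16 of 26 probes and 11 of 19 genes were members. The arachidonate epoxygenases of subfamilies 2C and 2J had 3 of 22 probes, for 2 of 15 genes, and none of the 16 probes for 10 Cyp2c genes was a member. Families 1 and 3 had 2 of 9 genes, and the sterol and bile acid enzymes 4 of 6. Of the 43 member probes, 32, for 23 genes, were detected on all 36 arrays. Cyp1a1 and Cyp1a2, the classic genes induced through the aryl hydrocarbon receptor, Cyp2j5 and Cyp3a11 were detected on 0 arrays, which says only that their probes gave no signal above the negative control beads.

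The threshold itself was thinly populated. Just inside it, Cyp26b1, a retinoic acid hydroxylase, and Cyp2b10, a target of the constitutive androstane receptor, were detected on 3 arrays, Cyp4f15 on 4 and Cyp46a1 on 5. Just outside it, 7 probes were detected on 1 array, among them Cyp7a1, the first enzyme of bile acid synthesis from cholesterol, and Cyp8b1. No probe was detected on exactly 2 arrays. Cyp2b10 reached 7.06 on the second cortex array at 1.3 MBq, 7.41 on the first medulla array at 1.3 MBq and 6.18 on the second medulla array at 45 MBq, and its median over treated arrays was 4.84 in cortex and 4.83 in medulla. Of the 32 genes, 29 passed the detection filter in each fit of 1 tissue, and all 32 passed it in the fit of 36 arrays.

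**Figure D1:**
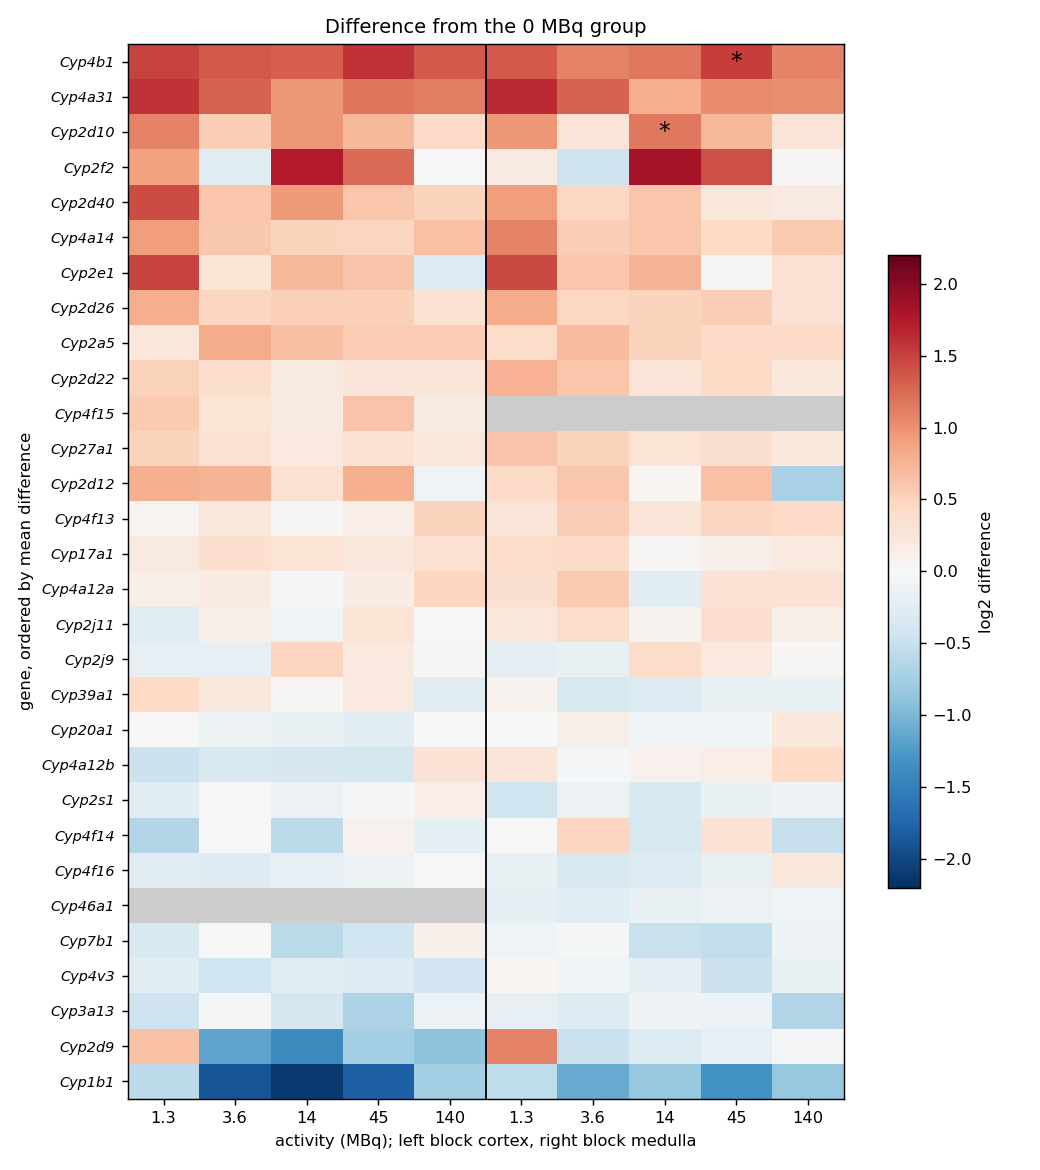
Mean log2 difference from the 0 MBq group of the same tissue for each P450 gene tested, with genes in rows ordered by their mean difference and the 5 activities of cortex (left) and of medulla (right) in columns. Red is higher than 0 MBq, blue lower, grey not tested, and an asterisk marks a call. Cyp4b1 and Cyp4a31 were above the control mean in every column, Cyp1b1 was below it in every column, and the 2 differences called were Cyp2d10 at 14 MBq (1.16) and Cyp4b1 at 45 MBq (1.52), both in medulla.

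Each activity was compared with 0 MBq in the same tissue to ask which P450 genes responded to the injection. In cortex, 0 of 29 genes were called at 1.3, 3.6, 14, 45 or 140 MBq, where 0.333%, 0.435%, 1.37%, 0.99% and 0.953% of all genes tested were called. At an unadjusted p under 0.05, limma gave 8, 4, 4, 3 and 4 of the 29, and all genes gave 12.2%, 13.6%, 15.6%, 13.1% and 11.5%. In medulla, 0 genes were called at 1.3, 3.6 and 140 MBq, 1 at 14 MBq and 1 at 45 MBq, against 0.773%, 1.92%, 4.36%, 2.36% and 1.51% of all genes in order of activity, with 11, 8, 4, 9 and 3 of 29 at an unadjusted p under 0.05, where all genes gave 13.7%, 19.1%, 22.8%, 19.2% and 13.6%. After adjustment, the share called among the members was therefore near the background or below it, where 1 call of 29 is 3.45%. Before adjustment, the members' share was above that of all genes at 1.3 MBq in both tissues and at 3.6 and 45 MBq in medulla. It was near that of all genes or below it in the other comparisons. The members' median difference lay between 0.152 and 0.254 in cortex and between 0.07 and 0.404 in medulla, where the medians of all genes lay between -0.024 and 0.019. All 5 comparisons of a tissue share its 3 control arrays.

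Cyp4b1, which oxidises fatty acids and activates some toxins outside the liver, was the fatty acid hydroxylase that was called. In medulla it measured 9.80, 10.83 and 11.71 on the control arrays and 12.21, 12.18 and 12.51 at 45 MBq. The groups did not overlap, and the control arrays spread far more than the treated ones. At 45 MBq it was higher by 1.52 ± 0.33, which is 2.87-fold (limma adjusted p = 0.0282). Without control array 1 the difference was 1.03 (adjusted p = 0.0903), and without control array 2 it was 1.55 (adjusted p = 0.068). The call was also lost without the first array at 45 MBq (adjusted p = 0.0847) or the third (adjusted p = 0.0926). In the same comparison 1 of 21 proximal tubule markers was called higher (list median 0.678) and 3 of 11 myeloid markers lower (list median -1.359), and their part in the Cyp4b1 values was not tested. In bulk tissue, more cells of a type and more RNA per cell cannot be told apart.

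Cyp4b1 differed from 0 MBq by similar amounts at other activities. In medulla the treated arrays ran from 11.64 to 12.54, and 12 of 15 lay above every control. Without the third medulla control it was called at the other 4 activities too, with differences between 1.55 and 1.82 and adjusted p between 0.00341 and 0.00668. It was called at no activity without the first medulla control. In cortex it measured 9.77, 11.50 and 12.01 on the controls and 11.99 to 12.91 on the treated arrays, of which 14 of 15 lay above every control. The cortex differences were 1.49 ± 0.43, 1.35 ± 0.43, 1.32 ± 0.43, 1.59 ± 0.43 and 1.36 ± 0.43 in order of activity, with limma adjusted p between 0.105 and 0.197. The spread of the controls was thus wider than that of the treated arrays, and the value showed no order with activity. Without the third cortex control, Cyp4b1 was called at every activity, with differences between 1.77 and 2.05 and adjusted p between 0.0171 and 0.0469. It was called at no activity without the first cortex control, where its value was lowest.

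With all arrays, the other CYP4 genes were not called in any comparison with 0 MBq. Cyp4a31, a fatty acid hydroxylase of the peroxisome proliferator-responsive 4A cluster, measured 9.09, 10.17 and 11.25 on the cortex controls and 12.23, 11.43 and 11.64 at 1.3 MBq. Every array at 1.3 MBq lay above every control, with a difference of 1.60 ± 0.47 (adjusted p = 0.162). In medulla its difference at 1.3 MBq was 1.64 ± 0.41 (adjusted p = 0.0791). Without the third cortex control Cyp4a31 was called at 1.3, 3.6 and 45 MBq, with differences of 2.13, 1.84 and 1.71 (adjusted p = 0.0356, 0.0447 and 0.0481), and without the first it differed by 1.06 at 1.3 MBq (adjusted p = 0.519). Without the third medulla control it was called at all 5 activities, and at 1.3 MBq its difference was then 2.16 ± 0.37 (adjusted p = 0.00761). No activity gave a call without the first medulla control. Cyp4a14, which hydroxylates medium-chain fatty acids and is induced through PPARA in mouse liver, measured 12.34, 12.98 and 13.41 on the medulla controls and 14.25, 13.99 and 13.76 at 1.3 MBq. These groups did not overlap either, and the difference was 1.09 ± 0.27 in medulla (adjusted p = 0.0784) and 0.93 ± 0.28 in cortex (adjusted p = 0.173). Without the third medulla control the medulla difference was 1.34 ± 0.28 and was called (adjusted p = 0.0161). It was not called without the first. Cyp4a12a, the main arachidonic acid hydroxylase of male mouse kidney, showed no such separation: its cortex controls ran from 9.92 to 11.60 and its treated arrays from 10.53 to 12.30. Its difference from 0 MBq lay between -0.04 and 0.47 in cortex and between -0.23 and 0.57 in medulla.

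**Figure D2:**
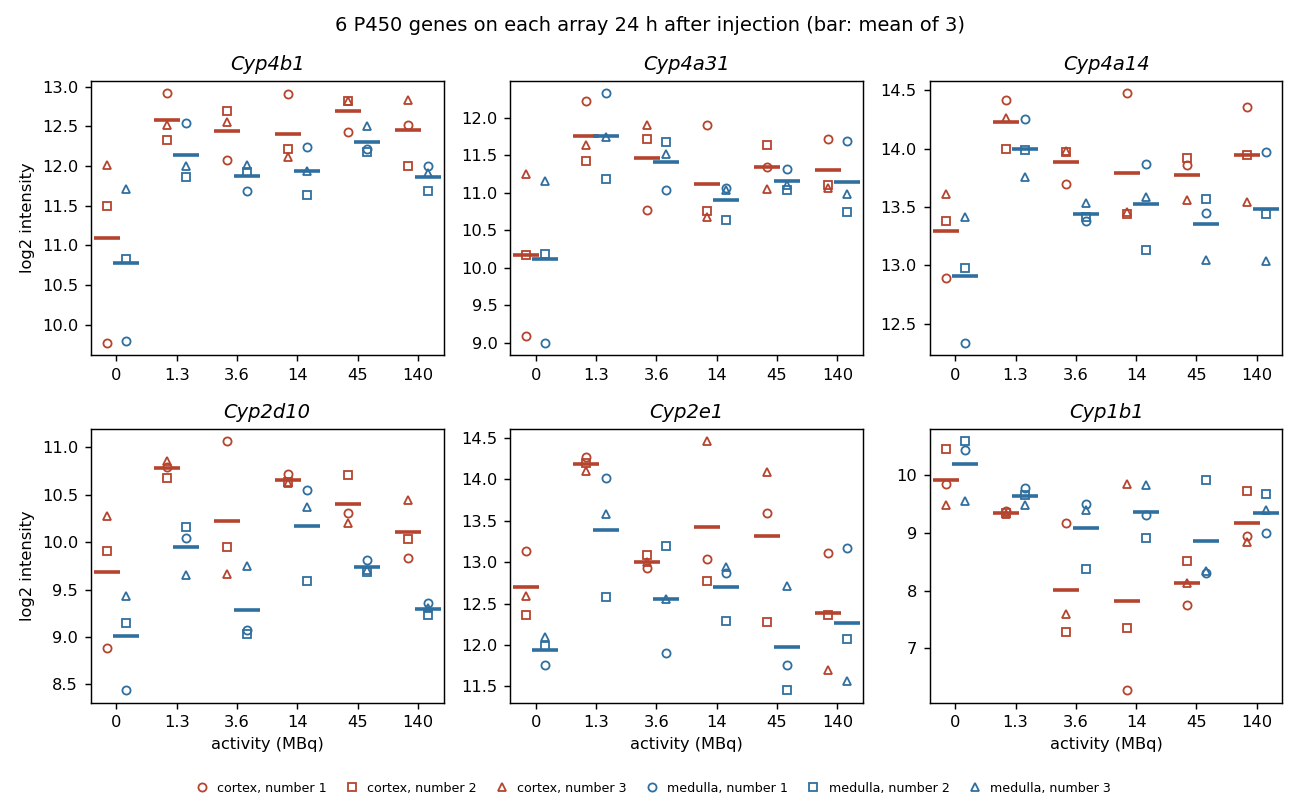
Log2 signal of Cyp4b1, Cyp4a31, Cyp4a14, Cyp2d10, Cyp2e1 and Cyp1b1 by injected activity in MBq, with each point 1 array (cortex red, medulla blue, the symbol giving the array number) and a bar at the mean of each group of 3. For Cyp4b1 the controls extend down to 9.77 in cortex and 9.80 in medulla, while the treated arrays sit between 11.99 and 12.91 in cortex and between 11.64 and 12.54 in medulla.

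The CYP4F enzymes, which inactivate leukotrienes and other eicosanoids, differed among themselves in how far their control arrays spread. Cyp4f13 measured 9.71, 9.57 and 9.86 on the medulla controls, and 13 of 15 treated arrays lay above all of them, up to 10.57. Its largest difference was 0.55 ± 0.19 at 3.6 MBq in medulla (adjusted p = 0.127). Cyp4f14 and Cyp4f16 were highest on control array 1 among the controls of each tissue: Cyp4f14 measured 8.04, 6.01 and 7.21 in cortex. Cyp4v3, a fatty acid hydroxylase, ran from 7.55 to 8.43 on the cortex controls and from 7.04 to 8.24 on the treated arrays. None of these CYP4F and CYP4V genes was called against 0 MBq.

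Subfamily 2D was the largest set of detected genes within family 2, with 6 genes, and held the second call. The mouse carries several Cyp2d genes side by side, where human drug metabolism relies on a single enzyme of the subfamily. Promoters of 23 of the 32 P450 genes were found in a RefSeq table of the mouse build GRCm38.p6, each running from 250 bases before to 50 bases after a transcript start. The promoters of 4 Cyp2d genes are printed because Cyp2d10 and Cyp2d40 showed the clearest activity differences of the subfamily and Cyp2d9 went the opposite way between tissues (below). Capitals mark TATAAA and the nuclear receptor half-site AGGTCA on either strand, so TTTATA is a match to TATAAA and TGACCT a match to AGGTCA.
Cyp2d10, chr15:82407145-82407444, minus strand: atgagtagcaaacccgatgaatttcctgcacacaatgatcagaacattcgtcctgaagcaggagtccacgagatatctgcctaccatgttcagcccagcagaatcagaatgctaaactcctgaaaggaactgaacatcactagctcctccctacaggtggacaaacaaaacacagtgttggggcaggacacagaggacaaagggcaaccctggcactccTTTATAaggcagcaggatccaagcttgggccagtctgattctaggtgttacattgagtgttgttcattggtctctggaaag
Cyp2d40, chr15:82764073-82764372, minus strand: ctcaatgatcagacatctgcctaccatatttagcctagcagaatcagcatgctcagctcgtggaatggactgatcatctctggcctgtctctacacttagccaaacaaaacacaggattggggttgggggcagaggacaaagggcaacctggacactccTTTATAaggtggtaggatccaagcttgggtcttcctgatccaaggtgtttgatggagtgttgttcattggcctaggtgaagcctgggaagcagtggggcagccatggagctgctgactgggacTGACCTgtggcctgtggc
Cyp2d26, chr15:82794196-82794495, minus strand: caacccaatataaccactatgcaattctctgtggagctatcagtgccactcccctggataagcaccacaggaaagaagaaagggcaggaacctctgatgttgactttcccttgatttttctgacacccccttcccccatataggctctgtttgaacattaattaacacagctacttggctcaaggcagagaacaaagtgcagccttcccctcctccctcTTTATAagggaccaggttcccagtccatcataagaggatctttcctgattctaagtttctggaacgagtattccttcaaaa
Cyp2d9, chr15:82452127-82452426, plus strand: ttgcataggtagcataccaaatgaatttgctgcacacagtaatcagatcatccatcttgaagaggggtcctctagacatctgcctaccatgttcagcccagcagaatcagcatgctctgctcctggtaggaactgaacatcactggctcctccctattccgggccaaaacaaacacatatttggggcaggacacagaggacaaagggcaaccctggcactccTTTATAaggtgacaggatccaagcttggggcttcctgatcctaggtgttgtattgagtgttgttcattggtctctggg
All 4 hold 1 TATAAA match, with its first base at -31 from the start in Cyp2d10 and Cyp2d26, at -28 in Cyp2d9 and at -91 in Cyp2d40. The Cyp2d10 and Cyp2d9 promoters were 82.9% identical over all alignment columns, with gaps counted as differences, and the other pairs 44.9 to 54.0%. The alignments of Cyp2d40 with Cyp2d10 and Cyp2d9 had 360 and 363 columns for promoters of 300 bases. Gaps thus lower these shares, and the position of the annotated start enters them. TATAAA occurred in 7 of 26 promoters of member genes and in 13.6% of 32851 promoters in the table, and AGGTCA in 3 of 26 and 16.3%. The direct repeat of AGGTCA with 1 spacer base, to which PPARA binds with its partner, occurred in 0 of 26 and in 0.0396% of all, on either strand. Signals of related copies may include cross-hybridisation, on which the likeness of promoters does not bear. Probe and transcript sequences were not compared here, so the values of single Cyp2d and Cyp4a genes are uncertain as to which copy they measure.

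Cyp2d10 was the Cyp2d gene that was called. In medulla it measured 8.44, 9.14 and 9.44 on the controls and 10.55, 9.59 and 10.37 at 14 MBq. All 3 treated arrays lay above all 3 controls, with a difference of 1.16 ± 0.27, which is 2.24-fold (limma adjusted p = 0.0267). Without control array 1 it was 0.88 (adjusted p = 0.11), and without control array 2 it was 1.23 (adjusted p = 0.0503). The call was also lost without the first array at 14 MBq (adjusted p = 0.0998) or the third (adjusted p = 0.0984). The latter is the array with adrenal marker signal. In the same comparison 4 of 21 proximal tubule markers were called higher (list median 0.49) and 6 of 11 myeloid markers lower (list median -1.457), and their part in the Cyp2d10 values was not tested. Without the third medulla control Cyp2d10 was also called at 1.3 MBq, higher by 1.16 ± 0.28 (adjusted p = 0.035). It was not called there without the first. In cortex Cyp2d10 measured 8.88, 9.91 and 10.28 on the controls and 10.72, 10.64 and 10.63 at 14 MBq, a difference of 0.97 ± 0.35 (adjusted p = 0.18).

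Cyp2d40 had the smallest p of all members in cortex. It measured 6.32, 7.38 and 7.31 on the controls and 8.43, 8.52 and 8.37 at 1.3 MBq, so the treated arrays lay close together about 1 log2 unit above the highest control. The difference was 1.44 ± 0.30 (limma adjusted p = 0.0583), short of the threshold. Without the third cortex control it was 1.59 ± 0.33 and was called (adjusted p = 0.0363), and with the deposited normalisation it was 0.83 ± 0.16 and was called (adjusted p = 0.0288). It was not called without the first cortex control. At 140 MBq the arrays measured 7.41, 7.23 and 7.86, which overlapped the controls. Cyp2d26 measured 11.59, 12.58 and 12.94 on the cortex controls and 13.09, 13.02 and 13.38 at 1.3 MBq, a difference of 0.79 ± 0.29 (adjusted p = 0.283). Its other 2 probes gave larger differences there, 1.91 ± 0.59 and 1.79 ± 0.49, which were not called either when every probe was tested (adjusted p = 0.194 and 0.139). Cyp2d22, expressed widely outside the liver in the mouse, differed by 0.77 ± 0.23 at 1.3 MBq in medulla (adjusted p = 0.128).

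Cyp2d12 and Cyp2d9 varied widely between arrays of 1 group. Cyp2d12 measured 9.90, 11.25 and 9.47 at 3.6 MBq in cortex and 9.07, 10.28 and 8.69 in medulla, so the array numbered 2 was high in both tissues. At 45 MBq the arrays numbered 2 and 3 were high in both, with 10.94 and 10.40 in cortex and 10.02 and 9.74 in medulla against 9.36 and 8.41 on the arrays numbered 1. Cyp2d9, a testosterone hydroxylase that is male-specific in mouse liver, measured 9.36, 8.80 and 5.46 at 140 MBq in cortex, the last value being undetected. In medulla the same activity gave 10.05, 9.21 and 7.92. Its differences from 0 MBq ran from -1.39 to 0.64 in cortex and from -0.48 to 1.10 in medulla, with none called.

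**Figure D3:**
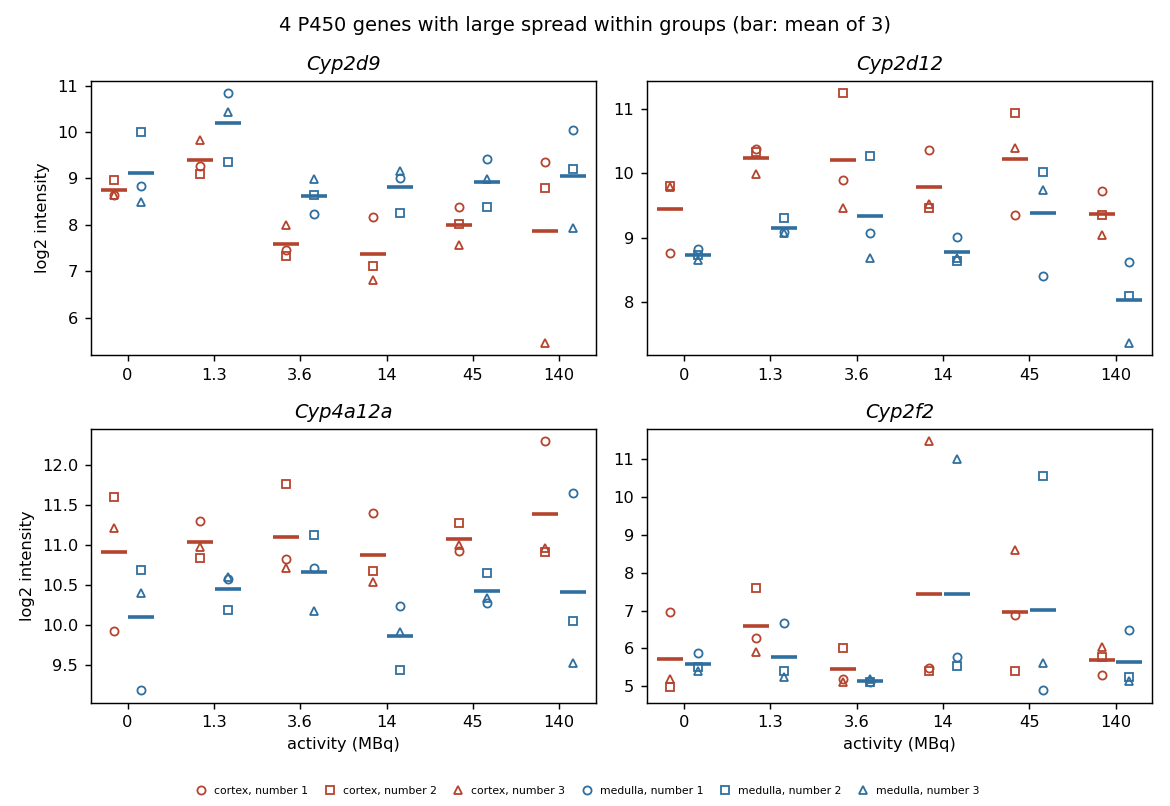
Log2 signal of Cyp2d9, Cyp2d12, Cyp4a12a and Cyp2f2, whose arrays within a group lay far apart, by injected activity in MBq, with each point 1 array (cortex red, medulla blue, the symbol giving the array number) and a bar at the mean of each group of 3. Cyp2d12 at 3.6 MBq was high in both tissues on array 2 (11.25 and 10.28), and Cyp2d9 at 140 MBq was low in both on array 3 (5.46 and 7.92).

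Cyp2e1, which oxidises ethanol and small solvents and is induced by fasting and ketone bodies in rodents, was high at the lowest activity. In cortex it measured 13.13, 12.37 and 12.60 on the controls and 14.27, 14.19 and 14.10 at 1.3 MBq, with no overlap and a difference of 1.49 ± 0.47 (adjusted p = 0.192). In medulla it measured 11.76, 11.98 and 12.09 on the controls and 14.01, 12.58 and 13.58 at 1.3 MBq, also without overlap (1.44 ± 0.44, adjusted p = 0.147). At 140 MBq the cortex arrays measured 13.11, 12.36 and 11.70, which overlapped the controls. Neither tissue passed the threshold at any activity. The level of the 8 hepatocyte markers detected, of 14 listed and without Alb, was also higher at 1.3 MBq in cortex. It ran from -0.796 to 0.082 on the controls and from 0.28 to 1.143 at 1.3 MBq. The highest cortex value of Cyp2e1, 14.46, was on the third array at 14 MBq, where the hepatocyte level was 0.031, within the control range. In medulla the hepatocyte level ran from -0.064 to 0.595 on the controls and from 0.401 to 0.478 at 1.3 MBq. None of these markers was called at 1.3 MBq in either tissue, and their part in the Cyp2e1 values was not tested.

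Cyp2a5, a coumarin hydroxylase that mouse liver induces under stress, measured 12.25, 13.16 and 12.64 on the medulla controls and 13.26, 13.56 and 13.27 at 3.6 MBq, a difference of 0.68 ± 0.22 (adjusted p = 0.116). A second Cyp2a5 probe, of several more that were detected, differed by 1.39 ± 0.32 in the same comparison. It passed the threshold (limma adjusted p = 0.0408) when every probe was tested. The remaining Cyp2a5 probes are not described here. Cyp2s1 ran from 8.71 to 9.40 on the medulla controls and from 8.53 to 9.12 on the treated arrays, and was not called with all arrays. Without the third medulla control Cyp2s1 was called lower at 1.3 MBq, with a difference of -0.62 ± 0.16 (adjusted p = 0.0393). It was not called without the first. Cyp2f2, the naphthalene-activating enzyme of lung club cells and also of liver, was detected on 15 of 36 arrays. It measured 11.47 on the third cortex array and 10.99 on the third medulla array at 14 MBq, the arrays with adrenal marker levels of 4.83 and 3.71 and adipocyte marker levels of 3.207 and 0.519. On the second cortex array at 1.3 MBq, with an adipocyte marker level of 3.056, it measured 7.60. It also measured 10.54 on the second medulla array at 45 MBq, where the adrenal marker level was -0.439, and 8.59 on the third cortex array at 45 MBq, where it was 0.18 and the adipocyte marker level was 2.35.

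**Figure D4:**
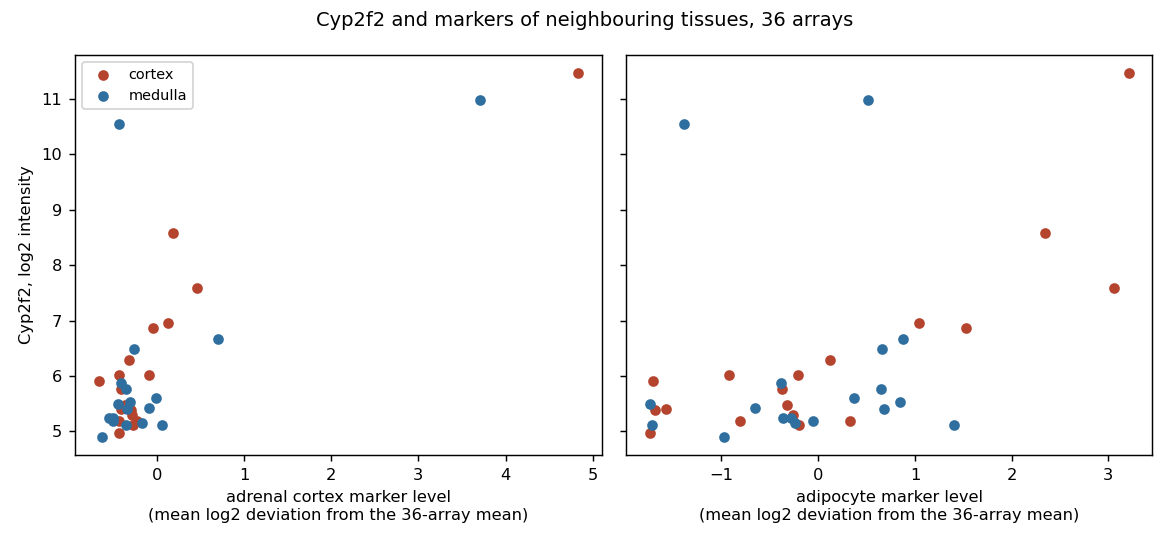
Log2 signal of Cyp2f2 on each array against the mean centred log2 level of adrenal cortex markers (left) and of adipocyte markers (right), with each point 1 of 36 arrays, cortex red and medulla blue. The 2 arrays farthest to the right by adrenal markers, both the third at 14 MBq, have Cyp2f2 at 11.47 and 10.99, and a medulla array at 45 MBq has 10.54 at an adrenal marker level of -0.439.

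Of families 1 and 3, Cyp1b1 and Cyp3a13 were members. Cyp1b1, an enzyme of vascular and stromal cells that oxidises polycyclic hydrocarbons and oestrogens, was lower than the control mean at every activity in both tissues. In cortex it measured 9.84, 10.45 and 9.47 on the controls, 9.18, 7.28 and 7.60 at 3.6 MBq and 6.28, 7.35 and 9.84 at 14 MBq. The 3 arrays at 14 MBq spanned over 3 log2 units, and the array that matched the controls was the third, with adrenal marker signal. The differences were -1.90 ± 0.67 at 3.6 MBq (adjusted p = 0.227), -2.10 ± 0.67 at 14 MBq (adjusted p = 0.133) and -1.79 ± 0.67 at 45 MBq (adjusted p = 0.244). Without that array, Cyp1b1 fell by 3.11 ± 0.49 (limma adjusted p = 0.00428).

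In medulla, Cyp1b1 measured 10.43, 10.59 and 9.55 on the controls and 8.31, 9.91 and 8.33 at 45 MBq. The second array at 45 MBq reached into the control range, and the difference was -1.34 ± 0.41 (adjusted p = 0.0882). Without that array Cyp1b1 fell by 1.87 (adjusted p = 0.016), and without the third control it fell by 1.66 (adjusted p = 0.0314). It was not called without the first control. Over all activities, 13 of 15 treated cortex arrays and 10 of 15 treated medulla arrays lay below every control. At 14 MBq in cortex, 3 of 11 myeloid genes and 2 of 11 endothelial genes were also called lower, with list medians of -1.527 and -1.201. At 45 MBq in medulla, 3 of 11 myeloid and 0 of 11 endothelial genes were called lower, with list medians of -1.359 and -0.237. No endothelial marker was called in any other comparison with 0 MBq. The part of these cells in the Cyp1b1 values was not tested. Cyp3a13 measured 6.75, 7.99 and 7.16 on the cortex controls and 6.46 to 7.96 on the treated arrays, with differences between -0.67 and -0.05.

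The epoxygenases Cyp2j9 and Cyp2j11, whose relatives form epoxides of arachidonic acid, showed small differences between activities. Cyp2j11 measured 12.23, 12.43 and 12.76 on the cortex controls and 11.87 to 12.85 on the treated arrays. Cyp2j9 measured 8.39, 8.81 and 8.88 on the medulla controls and 8.17 to 9.25 on the treated arrays. Neither was called in a comparison with 0 MBq, and their largest difference was 0.474 on the log2 scale.

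Among the sterol enzymes, Cyp27a1, the mitochondrial sterol hydroxylase of bile acid and oxysterol synthesis, had the tightest controls in medulla, at 9.50, 9.73 and 9.67. All 15 treated medulla arrays lay above them, between 9.75 and 10.56, a separation that 1.38% of all genes showed. No member had all 15 treated arrays below the medulla controls (0.699% of all genes), above the cortex controls (1.12%) or below them (0.981%). Its difference was 0.63 ± 0.15 at 1.3 MBq (limma adjusted p = 0.0598), and a second Cyp27a1 probe passed the threshold there with 0.85 ± 0.18 (adjusted p = 0.0348) and at 3.6 MBq with 0.80 ± 0.18 (adjusted p = 0.032) when every probe was tested. In cortex the controls measured 9.40, 10.41 and 10.17, and 3 of 15 treated arrays lay above them. Cyp7b1, which hydroxylates oxysterols and is male-biased in mouse liver, measured 8.24, 8.50 and 7.38 on the medulla controls and 7.35, 7.63 and 7.50 at 45 MBq, a difference of -0.55 ± 0.26 (adjusted p = 0.26). Without the third medulla control Cyp7b1 was among the genes called lower at 14 and 45 MBq. It was not called without the first. Cyp39a1 and Cyp46a1, 2 further cholesterol and oxysterol hydroxylases, lay near the detection limit in both tissues, as did Cyp17a1, the steroid hydroxylase and lyase of gonads and adrenals. Cyp20a1, of unknown substrate, stayed between 6.98 and 7.91 on every array.

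Whether any of the 6 activities differed was asked with an F test, and whether values followed the activity with a slope over the treated arrays. The F test called 0 of 29 members in cortex, against 0.722% of all genes, and 0 of 29 in medulla, against 5.22%. At an unadjusted p under 0.05, limma gave 4 members in cortex and 8 in medulla, where all genes gave 11.8% and 25.8%, and the smallest adjusted p was 0.0595, for Cyp2d10 in medulla. The slope called 0 of 29 in cortex and 0 of 28 in medulla, against 0.728% and 0.823% of all genes. The steepest among the members was that of Cyp2e1, at -0.19 ± 0.07 per doubling of activity in cortex (adjusted p = 0.334). The 6 Cyp2d slopes lay between -0.15 and -0.04 in cortex and between -0.13 and -0.05 in medulla, and none was called.

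Genes that feed or regulate the P450 enzymes were counted from lists written for this purpose. Of the electron donors and haem enzymes, 0 of 12 were called at any activity in cortex, and in medulla 1 of 11 at 14 MBq, which was Cyb5a, the cytochrome b5 that assists some P450 reactions, higher by 0.69 ± 0.17 (limma adjusted p = 0.0377). Of 16 PPARA targets outside the family tested in cortex, 3, 2, 2, 2 and 1 were called higher and 0 lower in order of activity, and of 15 in medulla 4, 3, 2, 3 and 0. The list median in cortex was 1.144 at 1.3 MBq and 0.345 at 140 MBq, where that of all genes lay between -0.024 and 0.019. Angptl4, an inhibitor of lipoprotein lipase, was higher by 2.62 ± 0.35 at 1.3 MBq in cortex (adjusted p = 0.00325). Of 4 targets of the aryl hydrocarbon receptor tested in cortex, 1 was called, at 140 MBq: Gsta1, a glutathione transferase, higher by 2.72 ± 0.58 (adjusted p = 0.0367). Of 8 sterol and bile acid enzymes in cortex, 1 was called at 14 and at 45 MBq: Ch25h, a cholesterol hydroxylase that is not a P450, lower with differences of -2.66 and -2.34 (adjusted p = 0.0228 and 0.0486).

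Calls outside the family were found among regulators and neighbouring pathways. Ppara, the receptor that drives CYP4A transcription, was called higher in cortex at 14 MBq by 1.43 ± 0.32 (limma adjusted p = 0.0392) and at 45 MBq by 1.89 ± 0.32 (adjusted p = 0.0104), and in medulla from 3.6 MBq upward by between 1.43 and 2.10. Of the 13 nuclear and xenobiotic receptors tested in medulla, 0, 2, 4, 3 and 1 were called higher in order of activity and 0 lower, and of 12 in cortex 0, 0, 1, 1 and 0. Of 10 clock and PAR bZIP regulators, 1, 3, 4, 3 and 4 were called higher and 1, 1, 2, 1 and 1 lower in cortex in order of activity, where between 0.333% and 1.37% of all genes were called. In medulla 2, 5, 5, 5 and 5 were called higher and 1, 1, 2, 2 and 1 lower, where between 0.773% and 4.36% of all genes were called. Per2, a clock repressor, was higher in cortex by 1.58 ± 0.16 at 3.6 MBq (adjusted p = 0.000354), and Arntl, its activator, fell by 2.48 ± 0.37 (adjusted p = 0.00522). Of 13 eicosanoid enzymes outside the family, 0, 1, 1, 2 and 2 were called higher and 0, 0, 1, 1 and 0 lower in cortex, and 0, 1, 4, 2 and 2 higher and 0, 0, 1, 0 and 0 lower in medulla. Ephx1, the microsomal epoxide hydrolase that acts on epoxides made by P450 enzymes, was higher by 2.91 ± 0.23 in cortex at 140 MBq (adjusted p = 8.88e-06). Of 12 retinoid enzymes and binding proteins, 0 were called in cortex, and in medulla 2 were called higher and 1 lower at 14 MBq. Of 15 p53 targets in cortex, 0, 2, 4, 8 and 11 were called higher and 0 lower in order of activity.

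Cortex was compared with medulla to ask where in the kidney each enzyme was expressed. At 0 MBq, 0 of 32 genes were called in the fit of all arrays, against 0.384% of all genes. With the array number as a block the same comparison also called 0 of 32, against 0.357% of all genes. Same-numbered control arrays of the tissues deviated together. A block by same-numbered pair of arrays, chosen after seeing the data, called 2 of 32, against 1.34% of all genes. These were Cyp4a12b, higher in cortex by 1.08 ± 0.20 (limma adjusted p = 0.0114), and Cyp4a12a, higher by 0.82 ± 0.16 (adjusted p = 0.0156), each higher in cortex in 3 of 3 pairs. Over the 5 treated groups, 18 of 32 genes were called, 14 higher and 4 lower in cortex, against 22.6% of all genes, of which 11.6% were higher and 11.1% lower. The members' median difference was 0.219, where that of all genes was 0.038. All 18 had the same sign at 0 MBq, and of all 32 genes 28 did. The share of all genes with the same sign was not counted.

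Of the 14 genes that were higher in cortex, 7 were family 2 enzymes that act on foreign compounds. Of these enzymes, counted without subfamily 2J, 7 of 11 were called higher and 1 lower. Cyp2d12 ran from 9.05 to 11.25 with a median of 9.90 on treated cortex arrays and from 7.37 to 10.28 with a median of 9.01 on treated medulla arrays, and it was higher in cortex in 15 of 15 same-numbered pairs. Its mean difference was 1.03 ± 0.20, which is 2.04-fold (limma adjusted p = 0.000477). The share of all genes with such counts of pairs was not determined. Treated arrays are matched here and below by number alone. Their deviations from the group means correlated between -0.304 and 0.506 within such pairs, and numbers were taken to pair only the controls. Cyp2d40 ran from 7.09 to 8.52 in cortex and from 5.95 to 7.55 in medulla, a difference of 0.92 ± 0.15 (adjusted p = 6.3e-05), which was the smallest p of the family. With the deposited normalisation this difference was 0.49 and still called. Cyp2d10 was higher in cortex by 0.75 ± 0.14, Cyp2d26 by 0.57 ± 0.12 and Cyp2d22 by 0.45 ± 0.11. The other 2 probes of Cyp2d26 gave 0.35 ± 0.23 and 0.38 ± 0.20 and were not called when every probe was tested (adjusted p = 0.308 and 0.174). Outside subfamily 2D, Cyp2e1 was higher by 0.69 ± 0.21 (adjusted p = 0.0192) and Cyp2s1 by 0.38 ± 0.10 (adjusted p = 0.00903). The ranges of the tissues overlapped for each of these genes.

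Cyp2d9 went the opposite way from the other 5 Cyp2d genes. It ran from 5.46 to 9.83 with a median of 8.02 on treated cortex arrays and from 7.92 to 10.83 with a median of 9.01 on treated medulla arrays. The medulla array was the higher one in all 15 same-numbered treated pairs. The difference was -1.08 ± 0.29 (limma adjusted p = 0.00681), and without the undetected cortex array at 140 MBq it was -0.84 and still called. Its promoter is the one printed above that shares 82.9% of alignment columns with that of Cyp2d10, which was higher in cortex.

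Of the 10 CYP4 genes, 4 were called higher and 1 lower in cortex. Cyp4a12a ran from 10.53 to 12.30 in treated cortex and from 9.44 to 11.65 in treated medulla, and was higher in cortex in 15 of 15 pairs, by 0.73 ± 0.21 (limma adjusted p = 0.0114). Cyp4a12b, its near-identical neighbour, was higher by 0.65 ± 0.19 (adjusted p = 0.0159). Cyp4b1 was higher by 0.49 ± 0.18 (adjusted p = 0.0475) and Cyp4a14 by 0.36 ± 0.13 (adjusted p = 0.0374), and both lost their call when some single arrays were left out or when the detection filter was dropped (adjusted p = 0.0715 and 0.0544). Cyp4f14, a leukotriene hydroxylase, was the exception: it ran from 5.87 to 7.75 in treated cortex and from 6.42 to 8.44 in treated medulla, a difference of -0.69 ± 0.20 (adjusted p = 0.0123).

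Of the remaining members, Cyp3a13 was higher in cortex by 0.67 ± 0.18 (limma adjusted p = 0.00728), Cyp2j9 by 0.48 ± 0.13 (adjusted p = 0.00675) and Cyp27a1 by 0.28 ± 0.08 (adjusted p = 0.0139). A second Cyp3a13 probe gave 0.28 ± 0.12 and was not called when every probe was tested (adjusted p = 0.0913). Cyp27a1 and Cyp2j9 were higher in cortex in 15 of 15 pairs and Cyp3a13 in 14 of 15. Cyp1b1 and Cyp7b1 were lower in cortex. Cyp1b1 ran from 6.28 to 9.84 in treated cortex and from 8.31 to 9.91 in treated medulla, a difference of -0.76 ± 0.26 (adjusted p = 0.0349), a call that ended without the detection filter (adjusted p = 0.0548). Cyp7b1 ran from 6.50 to 8.12 in cortex and from 7.35 to 8.41 in medulla, a difference of -0.46 ± 0.13 (adjusted p = 0.0102), and cortex was the higher one in 1 of 15 pairs. In the same comparison 8 of 11 endothelial and 7 of 11 myeloid markers were called higher in medulla, and the part of these cells in the medulla-high P450 genes was not tested.

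**Figure D5:**
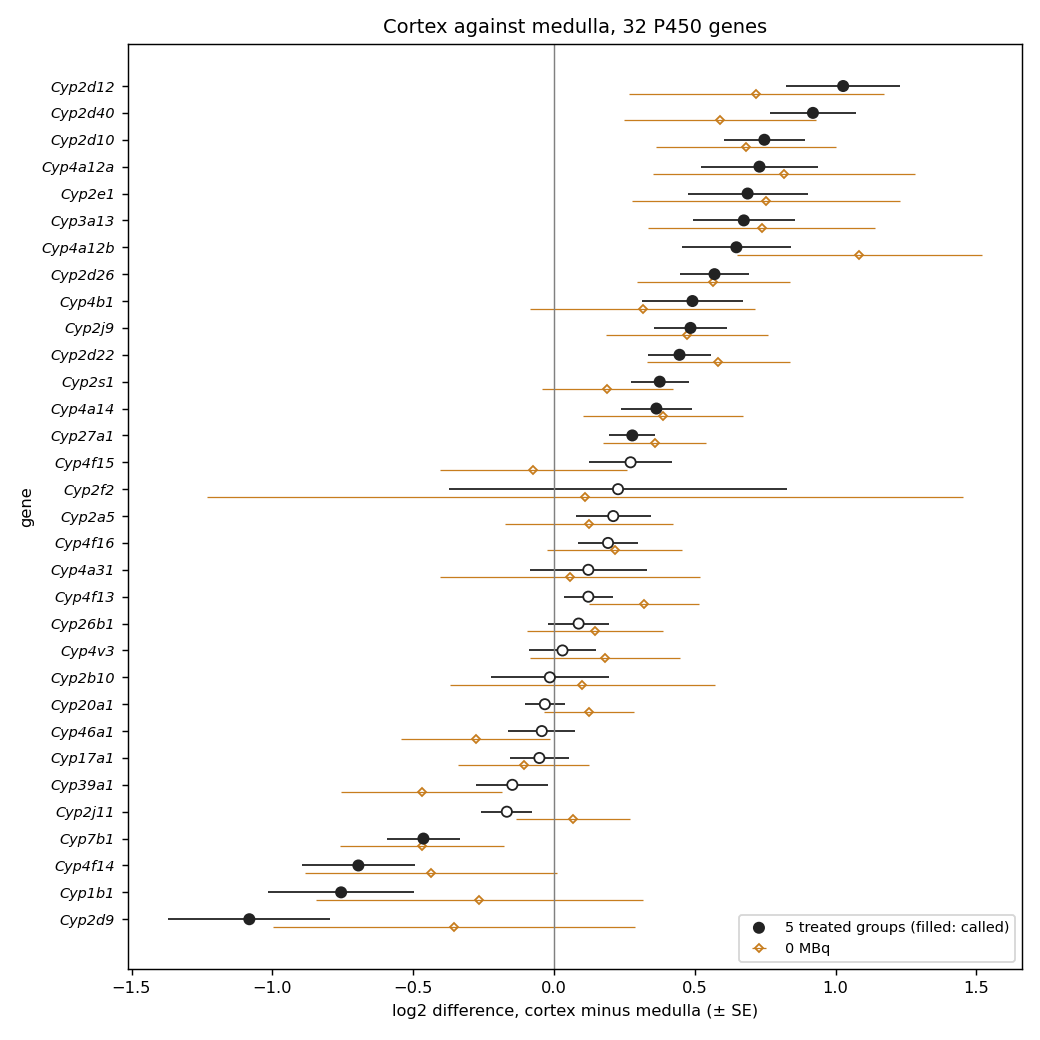
Log2 difference of cortex from medulla over the treated groups for each of the 32 P450 genes, as circles with bars of 1 SE, filled where called, and the same difference at 0 MBq as orange diamonds with their SE. Cyp2d12 (1.03) and Cyp2d40 (0.92) lie farthest toward cortex, and Cyp2d9 (-1.08), Cyp1b1 (-0.76) and Cyp4f14 (-0.69) farthest toward medulla.

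The interaction of tissue and activity asked whether the response to the injection differed between cortex and medulla. It called 0 of 32 members at 140 MBq, against 0% of all genes, and 0 members at each of the other activities. At an unadjusted p under 0.05, limma gave 0 members and 220 genes in all at 140 MBq, which is 1.92%. This fit takes cortex and medulla arrays as unpaired. The block by same-numbered pair also called 0 of 32 members at 140 MBq. It gave 1 member and 345 genes in all at an unadjusted p under 0.05. A difference between the tissues in the response of the P450 genes was therefore not detected in these fits, with 3 arrays per group.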

How the data were processed

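Messenger RNA was measured on Illumina bead arrays, 3 for each of 12 groups of tissue and injected activity, and groups follow the sample titles. Per the file headers, 1 deposited table pairs each probe's linear intensity with a detection p-value. Its intensities differ in level between arrays and have no background taken off. A second deposited table holds intensity values already normalised by the authors, in a way that no label or header used here describes, and it served as an alternative. The sources used here name no genome build for the array probes.

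The neqc function of limma (version 3.58.1, R 4.3.3) corrected the background, added an offset of 16, normalised by quantiles and returned log2 values; data.table (version 1.17.8) handled tables. A probe entered a fit where its detection p was under 0.05 on 3 or more of that fit's arrays, and the probe with the highest mean stood for its gene. Each tissue was fitted apart (lmFit and eBayes, 18 arrays, 6 groups), the slope was fitted to 15 treated arrays, and the tissues were compared in a fit of 36 arrays. Benjamini and Hochberg's method adjusted p-values over all genes of a comparison. Marker levels are means over a list of each gene's deviation from its mean over 36 arrays. Promoters came from RefSeq and were aligned with Biopython 1.88, and figures were drawn with matplotlib 3.10.9 from tables handled with pandas 2.3.3. The fit was tested on simulated data. The number of arrays limits the precision.

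Named genes were the members called, the 10 largest tissue differences each way, the 10 smallest F p in each tissue, up to 4 called genes of a list with the smallest p, and second probes that disagreed. Other members are named to account for the family. The members and lists were chosen with earlier results of these data known.

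The labels do not say that array numbers pair samples. Deviations from the group means of the 18 same-numbered pairs of cortex and medulla arrays correlated between -0.304 and 0.659, and 14 were above 0.1. The 3 control pairs lay between 0.613 and 0.659, so numbers were taken to pair the controls, from the data and not from the labels. The alternatives were the authors' normalisation, no background correction, no detection filter, a stricter filter, every probe, the replicate number as a block, and each array left out in turn. A block by tissue pair and a fit without both arrays numbered 3 at 14 MBq were chosen after seeing the data.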

Additional observations from a re-analysis of the deposited data

How the results depend on the processing

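Counts of P450 genes called were recomputed under each alternative, and no value reversed. With the deposited normalisation, and likewise without background correction, 1 gene was called at 1.3 MBq in cortex (Cyp2d40), 1 at 1.3 MBq in medulla (Cyp27a1), and 2 at 14 MBq in medulla and in the medulla F test (Cyp2d10 and Cyp4b1). Each time 29 members were tested. Calls over all genes were then 0.519%, 1.06%, 5.9% and 8.04% with the deposited normalisation. Without background correction they were 0.509%, 1.03%, 5.85% and 8.02%. The stricter detection filter called 1 gene at 1.3 MBq in each tissue, again Cyp2d40 and Cyp27a1. It called 0.695% of all genes there in cortex and 1.51% in medulla. Without a detection filter 1 gene was called at 140 MBq in cortex, Cyp2j13, which is no member of the detected set. There 0.491% of all genes were called. With every probe tested, 1 P450 gene was called at 1.3 MBq in medulla, 2 at 3.6 MBq (Cyp27a1 and Cyp2a5) and 1 in the medulla F test. Of all probes, 0.761%, 1.73% and 5.15% were called in these comparisons. Between tissues, the deposited normalisation gave smaller but still called differences for Cyp2d40 (0.49 against 0.92), Cyp3a13 (0.28 against 0.67), Cyp4a12b (0.30 against 0.65), Cyp4f14 (-0.35 against -0.69) and Cyp7b1 (-0.26 against -0.46), and leaving out the background correction did likewise. The causes were not tested. The calls of Cyp2d10 at 14 MBq and Cyp4b1 at 45 MBq held under each of these alternatives, with adjusted p from 0.0184 to 0.0384 and from 0.0196 to 0.0411.

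The replicate number as a block left 0 members called in every cortex comparison and changed no count of members elsewhere. The block by tissue pair, chosen after seeing the data, called 2 members at 0 MBq and 19 over treated groups, 18 of them shared with the fit without the block. It changed no other call. Within a tissue, same-numbered arrays correlated above 0.1 in 6 of 30 pairs of groups. Leaving out both arrays numbered 3 at 14 MBq kept the treated count at 18.

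Leaving out 1 array at a time gave 0 to 3 calls at 1.3 MBq, 0 to 2 at 3.6 MBq, 0 to 1 at 14 MBq, 0 to 2 at 45 MBq, 0 to 1 at 140 MBq and 0 to 1 by the F test in cortex. In medulla it gave 0 to 7 at 1.3 MBq, 0 to 2 at 3.6 MBq, 0 to 4 at 14 MBq, 0 to 4 at 45 MBq, 0 to 2 at 140 MBq and 0 to 3 by the F test. The slopes, the tissues at 0 MBq and the interaction stayed at 0, and the treated comparison of tissues gave 15 to 18. In each comparison of an activity with 0 MBq, and in the medulla F test, the highest count was reached without the third control of that tissue. The cortex F test reached 1 without the third array at 14 MBq (Cyp1b1) or at 140 MBq (Cyp2d9), and 14 MBq in cortex also reached 1 without the former array (Cyp1b1). In medulla at 1.3 MBq the 7 genes then called were Cyp27a1, Cyp2d10, Cyp2d26, Cyp2s1, Cyp4a14, Cyp4a31 and Cyp4b1. Calls over all genes rose too without the third medulla control, to 3.98%, 6.56%, 8.03%, 7.51% and 2.74% in order of activity. With all arrays they were 0.773%, 1.92%, 4.36%, 2.36% and 1.51%. By the medulla F test they rose from 5.22% to 9.25%. Without the third cortex control they rose from between 0.333% and 1.37% to between 1.37% and 3.22%. Without the first control of either tissue, 0 members were called against 0 MBq in any comparison of that tissue. Cyp4b1, Cyp4a14 and Cyp1b1 lost their call between tissues in 23, 15 and 12 of 36 such fits, and the other 15 kept theirs in all. Dim genes limit the reach: Cyp2b10 and Cyp26b1 were tested only in the fit of 36 arrays.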

Other observations

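Same-numbered arrays of cortex and medulla at 1 activity were also set side by side gene by gene. Cyp4b1 deviated from its group means to the same side in 17 of 18 such pairs, and Cyp4a12a, Cyp4a12b, Cyp4a14, Cyp4a31 and Cyp2a5 in 15 of 18. The median over the 32 P450 genes was 11 pairs, and that over all genes was 10. At least 12 pairs on the same side were found for 15 of 32 P450 genes and for 28.3% of all genes. Cyp4a12a gave 1 example: at 140 MBq the array numbered 1 was the highest in cortex, at 12.30, and in medulla, at 11.65. The array numbers carry no stated meaning in the labels, and whether same-numbered arrays come from 1 animal was not tested.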
